A study of Mus musculus with 15 samples.

Results

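The germline genes Dazl, Sycp3, Sycp1, Mael, Ddx4, Stk31, Tdrd1, Piwil2, Hormad1 and Taf7l, which are known to be held silent outside the germline by DNA methylation of their promoters, were examined for 2 histone marks in 3 mouse stem cell states. They were chosen by name, as 10 of the 22350 protein-coding genes of the annotation (GENCODE release M1, on mm9), and each was taken as its whole span widened by 5 kb on each side. ChIP-seq had been performed for H3K4me1, a histone H3 methylation of enhancers and of the flanks of promoters, and for H3K27ac, an acetylation of the same histone that accompanies enhancer and promoter activity. Each mark had 2 samples in each state and each state had 1 input, 15 samples in all, and the values were 6 lists of broad peaks, 1 for each mark and state. ESCs were J1 mouse embryonic stem cells of strain 129SV, kept with serum, LIF, CHIR99021 and PD0325901. D-EPSCs, the first of the expanded potential stem cell (EPSC) states, were kept in N2B27 with KnockOut serum replacement, LIF, CHIR99021, dimethindene maleate and minocycline hydrochloride. L-EPSCs were kept with KnockOut serum replacement, LIF, CHIR99021, PD0325901, A-419259, XAV939, JNK inhibitor VIII and SB203580. Both EPSC states had been converted from ESCs, so LIF, CHIR99021 and the origin from 1 line of ESCs were common to all 3. DNA methylation itself was not among the measurements. With 1 list per mark and state, no difference between states has a replicate check, and every count below is a description. Where 3 values are given without labels, they are those of ESCs, D-EPSCs and L-EPSCs in that order.

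These genes act in primordial germ cells, meiosis and the control of transposons by piRNAs, the small RNAs bound by PIWI proteins. Their promoters are rich in CpG, the dinucleotide at which mammalian DNA is methylated, and they are methylated around implantation and demethylated again in primordial germ cells. In embryonic stem cells a Polycomb complex that contains MGA, MAX, E2F6, PCGF6 and L3MBTL2 also represses many germline genes. MAX and MGA recognise the letters CACGTG, called an E-box, and E2F6 recognises letters such as TCCCGC.

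The E-box letters were present in the promoters of 8 of the 10 genes, all but Dazl and Piwil2, at 10 places. A promoter was taken as the 250 bases before and 50 after the start site. The 10 places are shown with 12 bases on each side because they are a sequence that most of these promoters share. They were read from NCBIM37 (mm9), each 5′ to 3′ on the strand of its gene, and capitals mark the E-box.
Sycp3, 46 bases before the start, chr10:87922256-87922285, plus strand: gccgttggctccCACGTGagaacgggcatg
Sycp3, 25 bases before the start, chr10:87922277-87922306, plus strand: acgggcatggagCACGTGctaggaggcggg
Sycp1, 94 bases before the start, chr3:102740100-102740129, minus strand: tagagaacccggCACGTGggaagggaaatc
Mael, 223 bases before the start, chr1:168169081-168169110, minus strand: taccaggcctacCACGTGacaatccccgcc
Ddx4, 29 bases before the start, chr13:113442530-113442559, minus strand: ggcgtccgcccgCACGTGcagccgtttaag
Stk31, 120 bases before the start, chr6:49345471-49345500, plus strand: aggccggccaccCACGTGaccagggctgcg
Tdrd1, 11 bases before the start, chr19:56900676-56900705, plus strand: tggggctgcgcgCACGTGggagtaaactgc
Hormad1, 57 bases before the start, chr3:95363530-95363559, plus strand: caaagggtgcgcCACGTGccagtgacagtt
Hormad1, 20 bases before the start, chr3:95363567-95363596, plus strand: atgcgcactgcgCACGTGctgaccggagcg
Taf7l, 49 bases before the start, chrX:131011061-131011090, minus strand: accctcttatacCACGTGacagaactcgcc

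Across all 22317 start sites whose promoter could be read, 7.78% held CACGTG, against 80% of the 10 germline genes. The letters are their own reverse complement, so one search covers both strands. Among the 10982 promoters with a CpG ratio at or above that of the lowest of the 10 genes, the share was 11.1%. TCCCGC was searched on both strands and cannot overlap CACGTG by more than its end letters. It was present in 5 of the 10 promoters, those of Sycp3, Sycp1, Mael, Ddx4 and Hormad1, against 24.4% of all promoters and 41.9% of those with such a CpG ratio. All 5 of these genes also held the E-box, whereas 2.51% of all promoters held both motifs. A match in these windows is a match of letters and does not show that a factor was bound.

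CpGs are the places where a promoter can be methylated, and they are shown for the 4 genes whose start site differed in class between states, that is in which of the marks lay within 1 kb: Dazl, Ddx4, Stk31 and Taf7l. The 250 bases before each start site are given 5′ to 3′ on the strand of the gene, from NCBIM37 (mm9), with every CpG in capitals.
Dazl, chr17:50432925-50433174, minus strand: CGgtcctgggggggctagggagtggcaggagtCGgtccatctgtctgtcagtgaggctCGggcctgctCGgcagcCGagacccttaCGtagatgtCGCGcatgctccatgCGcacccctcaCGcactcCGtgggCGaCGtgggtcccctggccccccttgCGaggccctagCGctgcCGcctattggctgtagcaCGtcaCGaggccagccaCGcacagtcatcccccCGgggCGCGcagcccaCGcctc
Ddx4, chr13:113442519-113442768, minus strand: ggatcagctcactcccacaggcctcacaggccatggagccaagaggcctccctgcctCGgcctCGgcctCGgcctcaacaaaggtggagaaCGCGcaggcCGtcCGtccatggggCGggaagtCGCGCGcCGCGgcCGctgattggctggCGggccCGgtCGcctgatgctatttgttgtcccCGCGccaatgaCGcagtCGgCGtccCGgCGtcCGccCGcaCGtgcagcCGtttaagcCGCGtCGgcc
Stk31, chr6:49345353-49345602, plus strand: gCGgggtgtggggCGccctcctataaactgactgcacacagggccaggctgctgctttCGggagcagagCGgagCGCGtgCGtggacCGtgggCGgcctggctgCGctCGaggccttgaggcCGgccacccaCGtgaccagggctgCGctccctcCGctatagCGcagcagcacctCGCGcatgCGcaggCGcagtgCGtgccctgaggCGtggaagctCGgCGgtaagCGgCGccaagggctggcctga
Taf7l, chrX:131011030-131011279, minus strand: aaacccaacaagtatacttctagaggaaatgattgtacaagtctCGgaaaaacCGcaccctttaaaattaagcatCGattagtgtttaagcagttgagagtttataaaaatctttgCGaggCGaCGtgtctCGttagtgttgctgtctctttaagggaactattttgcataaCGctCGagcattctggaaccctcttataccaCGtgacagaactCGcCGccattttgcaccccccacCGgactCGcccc
These stretches held 23 CpGs for Dazl, 31 for Ddx4, 26 for Stk31 and 14 for Taf7l.

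The CpG ratio, the number of CpGs observed over the number expected from the C and G content of the promoter, had a median of 0.765 over the 10 genes and of 0.535 over all 22317 promoters. The highest was that of Taf7l at 1.03, followed by Ddx4 at 0.978, Sycp1 at 0.874, Dazl at 0.830 and Mael at 0.780. Below the median were Stk31 at 0.750, Tdrd1 at 0.733, Hormad1 at 0.713, Sycp3 at 0.625 and Piwil2 at 0.545. Each promoter thus lay above the median of all promoters, and Piwil2 lay closest to it, with 50.8% of all promoters below its ratio. With promoters of 500 bases on each side of the start, the medians were 0.692 and 0.549. Piwil2 then lay below the median of all promoters, at 0.441, and Ddx4 (0.747) rather than Taf7l (0.664) was highest. The number of CpGs ranged from 13 in Sycp3 to 38 in Ddx4, with a median of 22.5, against 11 over all promoters.

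**Figure D1:**
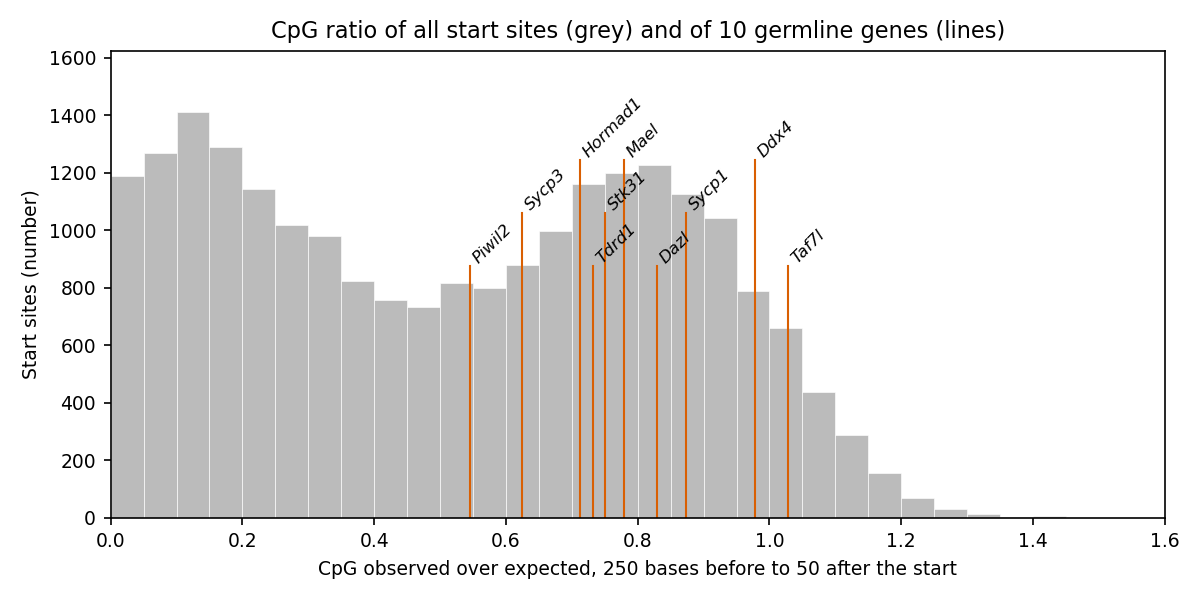
Number of start sites (vertical axis) by the CpG ratio of the promoter (horizontal axis, observed over expected, no unit) for all start sites in grey, with an orange line at the ratio of each of the 10 germline genes. The lines run from 0.545 for Piwil2 to 1.03 for Taf7l and lie in the upper of the 2 humps or at its lower edge.

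The lists differed in length, which bears on every comparison of states. H3K4me1 lists held 102751 to 107222 peaks and covered 221.1, 187.5 and 173.1 Mb. For H3K27ac they held 64342 peaks over 107.4 Mb in ESCs, 32782 over 44.4 Mb in D-EPSCs and 26966 over 34.3 Mb in L-EPSCs. Peak positions do not give the read depth of a library. The labelled cell type was checked against 8 pluripotency markers, of which all but Esrrb had H3K27ac within 1 kb of the start site in all 3 states. Of 8 markers of feeder fibroblasts, on which the ESCs could be grown (both EPSC states were kept without feeders ahead of ChIP), 0 had H3K27ac there in ESCs and D-EPSCs, and 1, Loxl1, had it in L-EPSCs over 128 bases.

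H3K4me1 without H3K27ac was the most common state of the start sites of the 10 germline genes in each of the 3 cell states. In ESCs 8 of the 10 had an H3K4me1 peak within 1 kb of the start site, against 57.6% of all 22322 start sites. In both EPSC states all 10 had one, against 67.1% of start sites in D-EPSCs and 68.1% in L-EPSCs. H3K27ac was found within 1 kb for 1 gene in each state: Dazl in ESCs (35.7% of all start sites) and in D-EPSCs (35.3%), and Stk31 in L-EPSCs (28.8%). H3K4me1 without H3K27ac was thus found at 7 genes for ESCs, 9 for D-EPSCs and 9 for L-EPSCs, beside 27.1%, 32.6% and 39.5% of all start sites. Sycp3, Sycp1, Mael, Tdrd1, Piwil2 and Hormad1 were of this class in all 3 states, and Dazl, Ddx4, Stk31 and Taf7l differed between states. The cultures were measured in bulk, so a mark present in few cells and a weak mark in all cells cannot be told apart.

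H3K4me1 lay over the first base of 4 of the 10 genes in ESCs, Dazl, Tdrd1, Piwil2 and Hormad1, against 11.4% of all start sites. In D-EPSCs it covered the first base of 9 genes, all but Taf7l (26.3%), and in L-EPSCs that of 8, all but Sycp1 and Taf7l (31.8%). Sycp3, Mael, Ddx4 and Stk31 had it there in both EPSC states and not in ESCs, a pattern found at 14.7% of all start sites. Ddx4 and Taf7l were the 2 genes with H3K4me1 within 1 kb in both EPSC states and not in ESCs, a pattern of 10.5% of start sites. Within 1 kb, 9 of the 10 genes had more H3K4me1 bases in D-EPSCs than in ESCs, and 9 had more in L-EPSCs, in each case all but Hormad1, beside 58.5% and 59.0% of all start sites. With lists cut to an equal number of peaks, 7, 10 and 10 genes had H3K4me1 within 1 kb, and 4, 9 and 8 had it over the first base. The ESC counts fell when only the widest peaks were kept so that the 3 lists covered equal bases. That setting removes narrow ESC peaks by construction. With it, 1 gene kept H3K4me1 within 1 kb for ESCs, against 8 for D-EPSCs and 10 for L-EPSCs. Of all start sites, 29.8%, 61.9% and 68.1% then had such a peak. The first base was then covered in 1, 7 and 8 genes, beside 7.53%, 24.6% and 31.8% of all start sites.

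**Figure D2:**
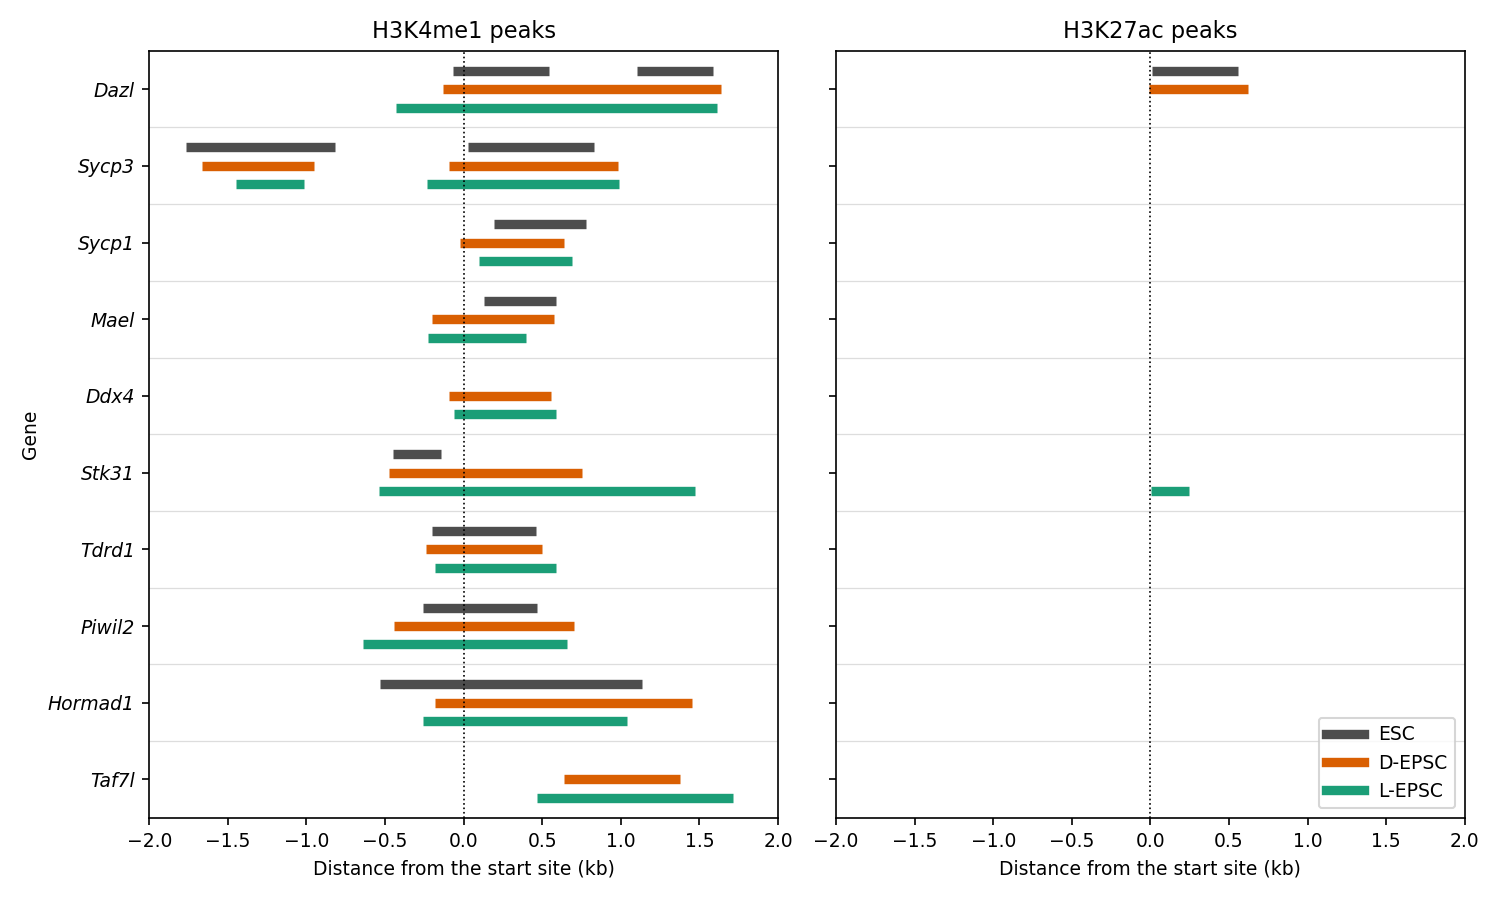
Peaks of H3K4me1 (left) and H3K27ac (right) around the start site of each gene in ESCs (grey), D-EPSCs (orange) and L-EPSCs (green), with distance from the start site in kb on the horizontal axis and positive values inside the gene. H3K4me1 bars reach the start site of 9 genes in D-EPSCs, and H3K27ac bars are seen for Dazl in ESCs and D-EPSCs and for Stk31 in L-EPSCs.

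Among the genes of the meiotic chromosome axis, Sycp3 encodes a protein of the lateral elements of the synaptonemal complex. It lies on chr10:87922314-87935981, plus strand. Its H3K4me1 peak at the start ran from 29 to 828 bp inside the gene in ESCs. It began 92 bp before the start in D-EPSCs and 233 bp before it in L-EPSCs, and ended 982 and 989 bp inside. The peak thus reached back across the E-boxes 46 and 25 bases before the start in both EPSC states and not in ESCs. A further H3K4me1 peak upstream measured 950, 718 and 429 bp, so that the bases in the whole window stayed alike, at 1750, 1793 and 1652. The nearest H3K27ac peak was 14727 bp from the start for ESCs, 54010 bp for D-EPSCs and 43970 bp for L-EPSCs.

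Sycp1 encodes the transverse filament that joins the lateral elements, and lies on chr3:102622422-102740023, minus strand. Its H3K4me1 peak at the start covered 194 to 775 bp inside the gene in ESCs, 23 bp before the start to 637 bp inside in D-EPSCs, and 100 to 687 bp inside in L-EPSCs. Its E-box, 94 bases before the start, was outside the peak in all 3 states. A second region lay in intronic sequence from 85839 bp inside the gene, where H3K4me1 covered 2784, 2427 and 1576 bp. The same region carried H3K27ac peaks of 748 and 333 bp for ESCs, of 441 bp for D-EPSCs and none for L-EPSCs. Sycp1 was the only one of the 10 genes in which both marks covered fewer bases of the window in each EPSC state than in ESCs. Over all genes, fewer H3K27ac bases than in ESCs were found for 49.0% in D-EPSCs and 52.9% in L-EPSCs. For H3K4me1 the shares were 43.7% and 51.1%, and the share with all of these at once was not counted.

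Hormad1, on chr3:95363599-95391593, plus strand, encodes a protein that marks chromosome axes before they synapse. Its start carried the widest of the H3K4me1 peaks at these starts in ESCs, 1661 bp, from 529 bp before the start to 1131 bp inside. The peaks of D-EPSCs (1630 bp) and L-EPSCs (1299 bp) began closer to the start, at 180 and 258 bp before it. Both of its E-boxes, 57 and 20 bases before the start, lay under H3K4me1 in all 3 states. The window had no H3K27ac in any state, and the nearest such peak was 5028 bp from the start for ESCs, 39862 bp for D-EPSCs and 64261 bp for L-EPSCs. H3K4me1 covered 3808, 4132 and 3965 bases of the window, some of it past the end of the gene near the start site of Golph3l, which lies in the window.

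The piRNA genes come next, beginning with Ddx4, the mouse homologue of the RNA helicase Vasa and a standard marker of germ cells, on chr13:113388541-113442518, minus strand. ESCs had no peak of either mark in its window, and the nearest H3K4me1 peak was 7490 bp from the start. D-EPSCs had 1 H3K4me1 peak of 643 bp, from 90 bp before the start to 552 bp inside, and L-EPSCs had 1 of 648 bp, from 60 bp before to 587 bp inside. These were the only peaks of the window, and both covered the E-box 29 bases before the start. Its nearest H3K27ac peak was 43721, 43720 and 84297 bp from the start.

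Mael, on chr1:168131516-168168875, minus strand, encodes Maelstrom, which is needed to repress transposons in the germline. Its H3K4me1 peak covered 129 to 584 bp inside the gene in ESCs and crossed the start in D-EPSCs, from 199 bp before to 575 bp inside, and in L-EPSCs, from 226 bp before to 395 bp inside. ESCs alone had a second H3K4me1 peak, of 1017 bp in an intron, at chr1:168144884-168145900. Through that peak the window held more H3K4me1 in ESCs (1473 bases) than in D-EPSCs (775) or L-EPSCs (622), whereas within 1 kb of the start the order was the opposite for ESCs, with 456, 775 and 622 bases. The window had no H3K27ac in any state.

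Stk31, a gene with Tudor and kinase-like domains expressed in germ cells, lies on chr6:49345603-49419500, plus strand. In ESCs the H3K4me1 peak nearest the start measured 305 bp and lay 451 to 147 bp before it. It measured 1230 bp in D-EPSCs, reaching 753 bp inside the gene, and 2009 bp in L-EPSCs, reaching 1471 bp inside. The E-box 120 bases before the start fell under the peak in both EPSC states and outside it in ESCs. L-EPSCs also had an H3K27ac peak from 6 to 245 bp inside the gene. That peak was 240 bp wide and was lost when only peaks of at least 500 bp were kept.

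Most of the peak bases of Stk31 lay in intronic sequence, in D-EPSCs from 14441 to 20573 bp inside the gene. H3K4me1 covered 3159 bp there in ESCs in 1 peak, 1347, 3670 and 243 bp in D-EPSCs in 3 peaks, and 5847 bp in L-EPSCs in 1 peak at chr6:49360319-49366165. H3K27ac peaks over the same stretch measured 787 bp in ESCs and 1929 and 1125 bp in D-EPSCs. In L-EPSCs they measured 602, 300 and 738 bp, and a further one of 713 bp lay past this stretch, 21154 to 21866 bp inside the gene, and reached a coding exon. Stk31 was the only one of the 10 genes with H3K27ac in the window in all 3 states (2268, 3523 and 2593 bases), and it had the most H3K4me1 in each (3917, 6490 and 8574 bases). Of these H3K27ac bases, 1179 in ESCs and 469 in D-EPSCs lay past the end of the gene. Over all genes, 57.0%, 51.3% and 44.2% had H3K27ac in the window, and the share with it in all 3 states was not counted.

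Tdrd1 encodes a Tudor protein that binds PIWI proteins, and lies on chr19:56900699-56944502, plus strand. Its H3K4me1 peak at the start was alike in the 3 states, at 660, 737 and 771 bp, and covered the E-box 11 bases before the start in all of them. H3K27ac covered 0 bases of the window for ESCs, 798 for D-EPSCs and 388 for L-EPSCs. These peaks lay 4493 to 3696 bp and 4456 to 4069 bp before the start. The start site of A630007B06Rik lies 4019 bp before that of Tdrd1, under the D-EPSC peak and beside the L-EPSC peak, so the bases cannot be assigned to Tdrd1. The H3K4me1 of its window, 1522, 3495 and 4352 bases, likewise included peaks near A630007B06Rik and near the start of Vwa2.

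Piwil2, on chr14:70772287-70828901, minus strand, encodes MILI, a PIWI protein that binds piRNAs. Its H3K4me1 peak at the start measured 725 bp for ESCs, 1146 bp for D-EPSCs and 1299 bp for L-EPSCs, and it crossed the start in all 3. H3K27ac was absent from the start and lay in an intron, over 789 bp in ESCs and 1896 bp in D-EPSCs (chr14:70813202-70815097), and was absent from the window in L-EPSCs. H3K4me1 was present at that intronic region in all 3 states, over 1516, 2385 and 1849 bp. L-EPSCs thus had H3K4me1 without H3K27ac at this place, and D-EPSCs had the most bases of both marks. Further H3K4me1 peaks of 330 to 1392 bp lay deeper in the gene in every state.

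Dazl, which encodes an RNA-binding protein needed for germ cells to enter meiosis, lies on chr17:50418719-50432924, minus strand, and was the only one of the 10 genes with H3K27ac at the start in more than 1 state. H3K27ac ran from 7 to 558 bp inside the gene in ESCs and from 8 bp before the start to 620 bp inside in D-EPSCs. L-EPSCs had none in the window, and the nearest H3K27ac peak was 260354 bp from the start. H3K4me1 covered the start in all 3 states, with 610, 1135 and 1434 bases within 1 kb. The single peak measured 1774 bp for D-EPSCs and 2048 bp for L-EPSCs, where ESCs had separate peaks of 610 and 486 bp. The ESC peak of H3K27ac, 552 bp wide, was lost when the ESC list was cut to the number of peaks of the shortest list, and Dazl then had H3K27ac at the start in D-EPSCs only. With lists of equal covered bases neither of its H3K27ac peaks remained.

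Taf7l, a germ cell paralogue of a subunit of the general transcription factor TFIID, lies on chrX:130994657-131011029, minus strand, and is the only X-linked gene of the 10. No peak of either mark lay in its window in ESCs, where the nearest H3K4me1 peak was 65826 bp from the start. H3K4me1 covered 636 to 1375 bp inside the gene in D-EPSCs and 467 to 1715 bp inside in L-EPSCs, so the first base was uncovered in each state. Other annotated transcripts of Taf7l start 1497 and 1502 bp inside the gene, under the L-EPSC peak and past the D-EPSC peak. Over chromosome X as a whole, H3K4me1 was found within 1 kb of 14.0%, 38.8% and 42.4% of 930 start sites, against 59.5%, 68.3% and 69.2% of 21392 start sites on the autosomes. The part of this chromosome-wide difference in the Taf7l values was not tested.

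The placement of H3K4me1 at these genes differed in form from that over all start sites. Of 41 other germline genes described below, 41.5%, 58.5% and 78.0% had H3K4me1 over the first base, beside 40%, 90% and 80% of the 10. The shares were 25%, 62.5% and 50% for the 8 feeder fibroblast markers and 0%, 25% and 50% for the 8 pluripotency markers. At 200 bp inside the gene, H3K4me1 covered 70% of the 10 genes for ESCs, 90% for D-EPSCs and 90% for L-EPSCs, against 11.0%, 26.3% and 32.1% of all start sites. Over all start sites the share dipped at the start and was higher, at 30.6%, 47.0% and 49.2%, 1000 bp inside. At that distance the 10 genes stood at 10%, 30% and 40%. The peaks at the starts of the 10 genes were also narrow, with medians of 635 bp for ESCs (8 genes), 925 bp for D-EPSCs and 1236 bp for L-EPSCs, beside 1515, 1992 and 1860 bp over all start sites with a peak. All start sites include those with H3K27ac, which most of the 10 genes lacked. Start sites with H3K4me1 and no H3K27ac were not profiled apart, so the form cannot be called particular to these genes. No test of these differences was possible with 10 genes chosen by name and 1 list per state.

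**Figure D3:**
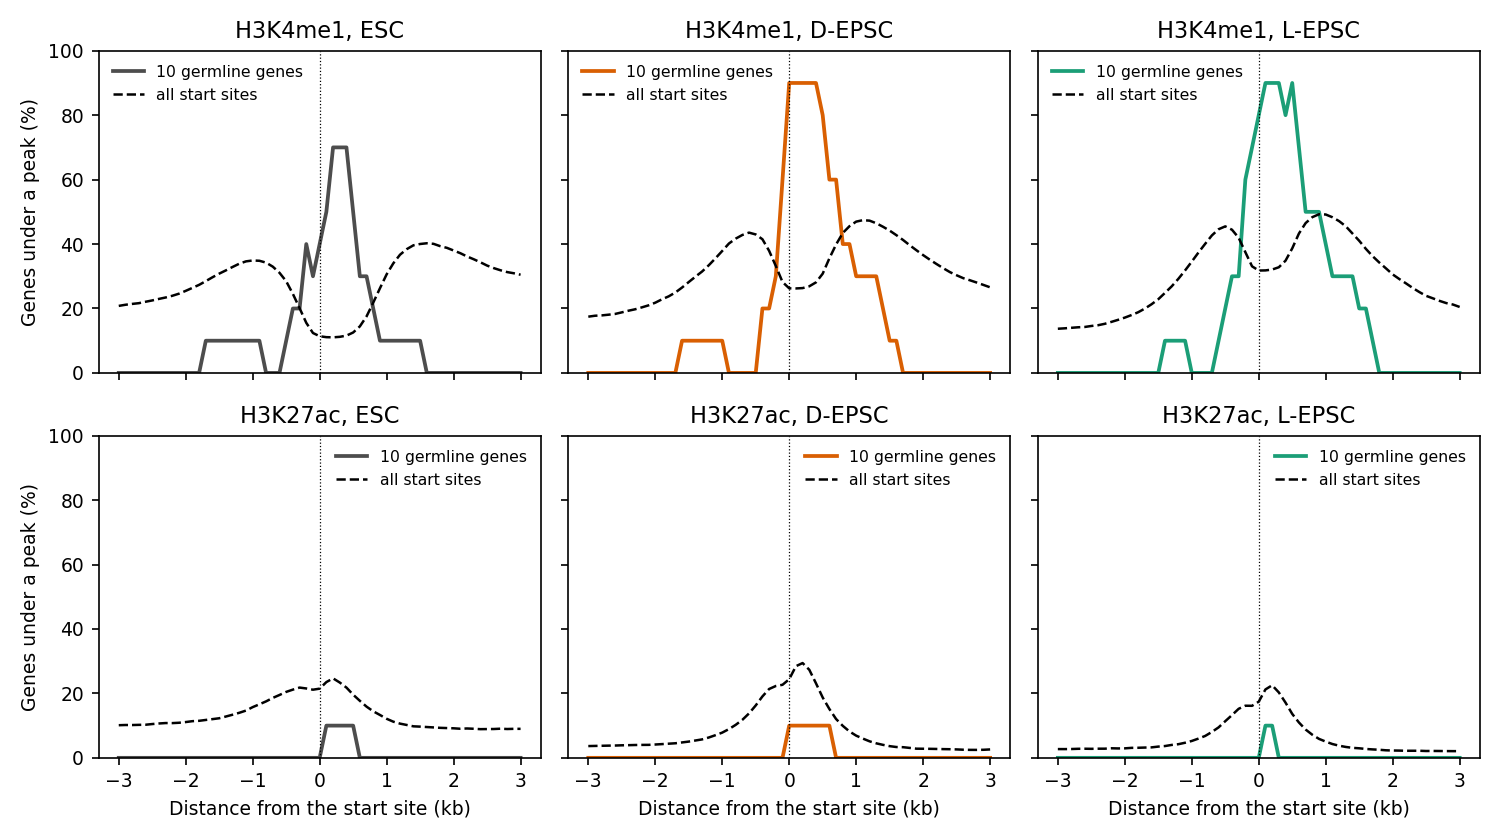
Share of genes under a peak (vertical axis, percent) by distance from the start site (horizontal axis, kb, positive inside the gene) for the 10 germline genes (solid lines) and all start sites (dashed lines), with H3K4me1 above, H3K27ac below and 1 column per state. In H3K4me1 the solid line is highest just inside the gene, 70% to 90% at 200 bp, where the dashed line dips, and in H3K27ac the solid line does not pass 10%.

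The E-box matches could be set directly against the peaks. Whether a match or a first base counts as covered rests on the edge of a broad peak. With 1 list per state, how far such an edge can shift is unknown. Of the 10 matches, 3 lay under H3K4me1 in ESCs, those of Tdrd1 and Hormad1. In D-EPSCs 7 did, with those of Sycp3, Ddx4 and Stk31 added, and in L-EPSCs 8 did, with that of Mael added. The matches of Sycp1 and Taf7l lay outside the peaks in every state. Of the 1929 CACGTG matches in all promoters, 12.6%, 32.2% and 42.1% lay under H3K4me1, so the share was also lowest in ESCs there. Among all start sites with H3K4me1 and no H3K27ac within 1 kb, the letters CACGTG were held by 9.11%, 7.55% and 8.32% of promoters, beside 80% of the 10 genes.

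Over the whole windows H3K4me1 covered 20518 bases for ESCs, 29155 for D-EPSCs and 30040 for L-EPSCs, in 21, 27 and 24 peaks. More H3K4me1 than in ESCs was found for 8 genes in D-EPSCs, against 36.0% of all 22350 genes, and for 7 in L-EPSCs, against 29.6%. Fewer H3K4me1 bases were found for 2 genes in D-EPSCs, Sycp1 and Mael (43.7% of all genes), and for 3 in L-EPSCs, Sycp3, Sycp1 and Mael (51.1%). Over all genes, fewer bases were thus more common than more bases in both EPSC states, and among the 10 genes more bases were the more common. With spans widened by 10 kb this held for 7 genes against 3 in D-EPSCs but not in L-EPSCs, where 5 genes had more and 5 had fewer. Of all genes, 35.5% then had more and 46.7% fewer in D-EPSCs, and 29.1% more and 54.1% fewer in L-EPSCs. The median share of the window under H3K4me1 was 3.82%, 6.91% and 6.87% for the 10 genes and 12.6%, 11.9% and 10.4% for all genes.

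H3K27ac covered 4690, 7287 and 2981 bases of the windows, in 7, 7 and 6 peaks, of which 1 per state lay within 1 kb of a start. Peaks were present in the windows of 4 genes for ESCs, 5 for D-EPSCs and 2 for L-EPSCs, beside 57.0%, 51.3% and 44.2% of all genes. Without Tdrd1, whose peaks lie at another start site, the counts were 4, 4 and 1. Sycp3, Mael, Ddx4, Hormad1 and Taf7l had no H3K27ac in the window in any state, which was true of 38.6% of all genes. Fewer H3K27ac bases than in ESCs were found for 1 gene in D-EPSCs, Sycp1 (49.0% of all genes), and for 3 in L-EPSCs, Dazl, Sycp1 and Piwil2 (52.9%). More were found for 4 in D-EPSCs, Dazl, Stk31, Tdrd1 and Piwil2 (11.9%), and for 2 in L-EPSCs, Stk31 and Tdrd1 (6.13%), which without Tdrd1 made 3 and 1. The ESC sum was 1179 bases with lists of equal number and 0 with lists of equal covered bases. No gene then had fewer bases than in ESCs, but a window left without ESC bases cannot have fewer, so this count decides nothing. With spans widened by 10 kb, 3 genes had fewer in D-EPSCs (53.7% of all genes) and 5 in L-EPSCs (57.7%).

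**Figure D4:**
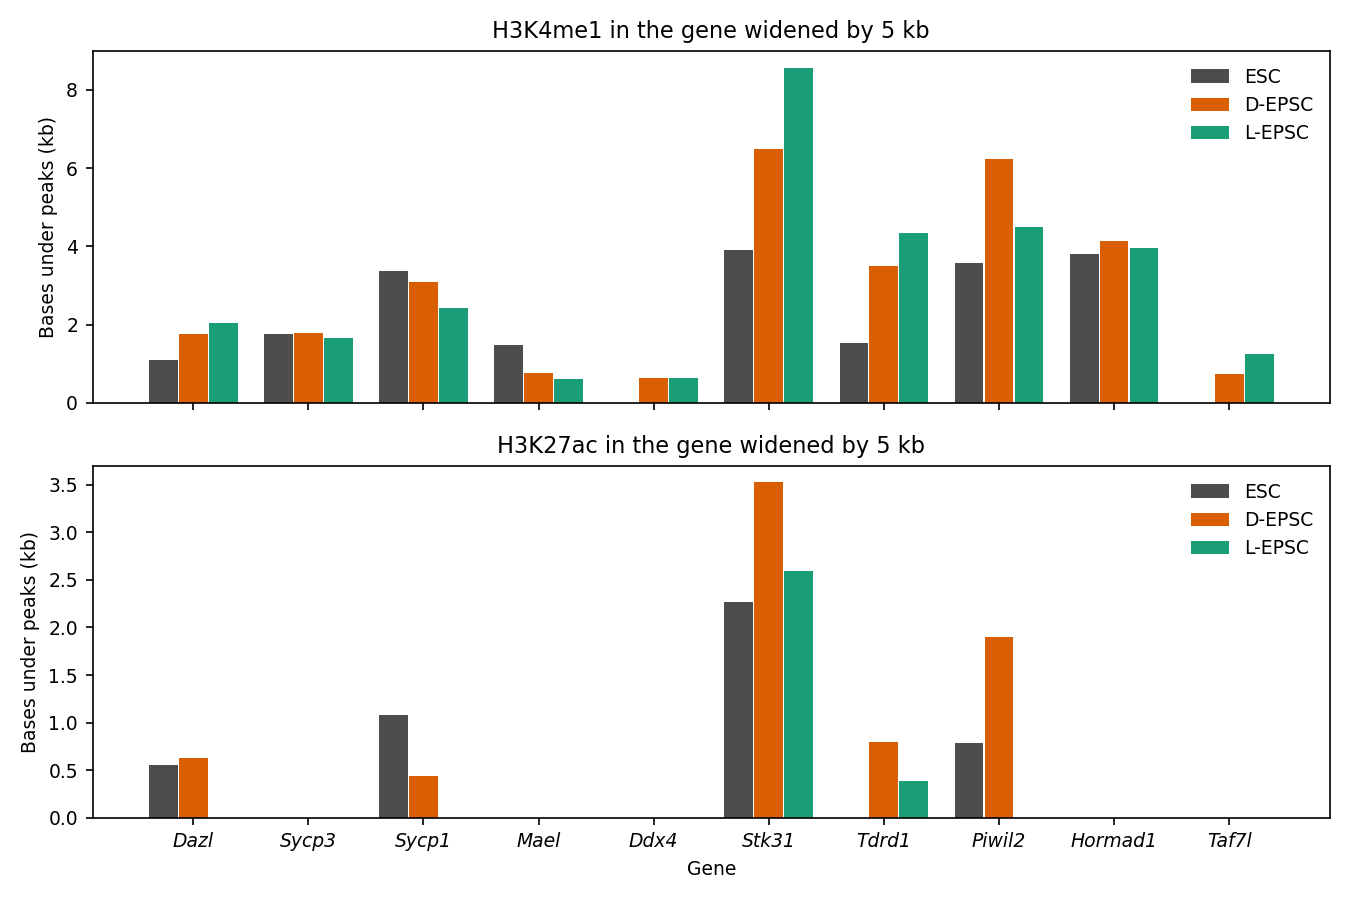
Bases under H3K4me1 peaks (top) and H3K27ac peaks (bottom) in the window of each gene, in kb on the vertical axis, as bars for ESCs (grey), D-EPSCs (orange) and L-EPSCs (green), with 1 list per bar and no error. Stk31 has the tallest bars for both marks, up to 8574 bases of H3K4me1 and 3523 of H3K27ac, and 5 genes have no H3K27ac bar.

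For each gene the most similar gene on another chromosome was sought, by the mean absolute difference in the percent covered within 5 kb of the start over the 6 lists. The measure is small by construction where most lists have no bases. It was smallest for Taf7l, whose nearest pattern was that of Gstm5 with a difference of 0.0133 percentage points, and for Ddx4, nearest to Gpr173 with 0.0267, both of which had bases in 2 of the 6 lists. It was largest for Dazl, nearest to Exoc3 with 0.758, for Stk31, nearest to Itih5 with 0.658, and for Tdrd1, nearest to 2010109K11Rik with 0.653, which had bases in 4 or 5 lists. Between these lay Hormad1 with Cdh10 (0.0617), Piwil2 with Samd12 (0.0650), Sycp1 with Far2 (0.160), and Sycp3 with Gm813 and Mael with Alox8 (0.190 each). The 10 genes themselves were left out of the search, so their likeness to each other was not examined.

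A list of other germline genes, of which 41 of 42 were matched by symbol, gave the wider setting. H3K4me1 lay within 1 kb of the start in 29 of the 41 for ESCs, 31 for D-EPSCs and 34 for L-EPSCs. These were 70.7%, 75.6% and 82.9%, beside 57.6%, 67.1% and 68.1% of all start sites. H3K4me1 over the first base was found in 17, 24 and 32, beside 11.4%, 26.3% and 31.8% of all start sites. H3K27ac within 1 kb was found in 12, 10 and 8, and in 16 in any state. The counts by state were 29.3%, 24.4% and 19.5%, beside 35.7%, 35.3% and 28.8% of all start sites. The order of these H3K27ac counts depended on the lengths of the lists. They were 6, 10 and 8 with an equal number of peaks and 2, 4 and 8 with equal covered bases. The 5 genes with H3K27ac in all 3 states were the meiotic recombination genes Dmc1, Msh4 and Msh5, Tex14, which is needed for the bridges between germ cells, and Tex19.1, a placental and germline gene with 1202, 1345 and 1070 bases. Tex14 has another start site within 2 kb.

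The other 11 genes had H3K27ac in 1 or 2 states. Stra8, the retinoic acid target needed for meiotic entry, had it in L-EPSCs only, over 1773 bases, and Nanos3, needed for the survival of primordial germ cells, had it over 2001 bases for ESCs, 1075 for D-EPSCs and 0 for L-EPSCs. In ESCs alone it was found at Hormad2, Rnf17, Tex15 and Dnd1, over 98 bases at Dnd1. It was found at Syce2 in ESCs and D-EPSCs, at Rec8 in ESCs and L-EPSCs, at Tdrd12 and Smc1b in D-EPSCs, and at Stag3 in both EPSC states, of which Smc1b and Stag3 have another start site within 2 kb. The CpG ratio of the 41 promoters had a median of 0.580, and 11 of them held CACGTG (26.8%).

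A list of 18 regulators held 16 genes known as silencers of germline genes, and Tet1 and Tet2, which oxidise methylated cytosine. H3K27ac lay within 1 kb of the start of 13, 13 and 12 of the 16 silencers, and of 11 in all 3 states. Of all start sites, 35.7%, 35.3% and 28.8% had H3K27ac there. It was found at Tet1 and Tet2 in every state, which makes 15, 15 and 14 over the list. The other 5 silencers were E2f6, Setdb1, Ehmt2, Dnmt3a and Dnmt3b. E2f6 had 0 bases for ESCs, 614 for D-EPSCs and 380 for L-EPSCs. Setdb1, a histone H3 lysine methyltransferase, had 120 bases in ESCs and 0 in both EPSC states, and Ehmt2, also known as G9a, had 1267, 778 and 0. The de novo DNA methyltransferase genes Dnmt3a and Dnmt3b had none at the start of the annotated gene in any state, and H3K4me1 there in all 3. Other transcript starts of Dnmt3a and Dnmt3b, and the rest of their spans, were not examined.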

How the data were processed

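Each state had 2 ChIP-seq samples of H3K4me1, 2 of H3K27ac and 1 of input. By the methods of the study and the submitters' processing notes, the authors aligned paired reads of 150 bp to mm9 with Bowtie2 2.3.5, sorted them with SAMtools 1.10 and called broad peaks with MACS against input. The deposited files gave 1 list of peak positions per mark and state, with no count, score or signal. Thresholds and any pooling of replicates were not stated, and depth was unknown.

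Peaks were checked against chromosome lengths of NCBIM37, and 0 passed an end. Genes and start sites came from GENCODE release M1, with coordinates 1-based. A peak was counted when at least 1 bp overlapped. Genes sharing a start site were counted once (22322 sites). Promoter sequence was read from NCBIM37. Groups came from the sample labels, and the lists were compared by counts, with no test.

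The members, gene lists and the choice of measures were made with earlier results of these data known. All 10 members were named, along with other germline genes that had H3K27ac at the start in any state and regulators listed as silencers that lacked it in at least 1 state. Alternatives were other widths around start and gene, any annotated transcript start, peaks joined over 1 kb, peaks of at least 500 bp, lists of equal number or equal covered bases (widest peaks kept), the span without other genes, and promoters of 500 bases on each side. Leaving out genes with another start site within 2 kb, leaving out Tdrd1, Tet1 and Tet2, and the wider spans for genes with more bases were added after seeing the data. The code was tested on simulated data. Python 3.11.15, numpy 2.4.6 and matplotlib 3.10.9 were used.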

Additional observations from a re-analysis of the deposited data

Results flagged for a closer look

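At 3 genes the covered bases of the EPSC states lay on opposite sides of the ESC value, and with 1 list per state the difference was not tested. H3K27ac in the window of Dazl covered 552 bases for ESCs, 629 for D-EPSCs and 0 for L-EPSCs, an L-EPSC minus D-EPSC difference of -629 bases. For Piwil2 it covered 789, 1896 and 0 bases, a difference of -1896. H3K4me1 in the window of Sycp3 covered 1750, 1793 and 1652 bases, a difference of -141.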

How the results depend on the processing

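Of 178 recomputed values for 36 results, 153 stayed within 1.5 times the reported value (or, for the CpG ratio, near it at 0.692 with 500 bases on each side) and 25 moved. Cutting the lists to an equal number of peaks gave 0 genes with H3K27ac at the start in ESCs, 1179 H3K27ac bases in ESC windows, 0 genes with fewer H3K27ac bases in D-EPSCs and 0 in L-EPSCs, and 6 other germline genes with H3K27ac in ESCs. Equal covered bases keeps 3725 H3K27ac and 44749 H3K4me1 peaks of ESCs, and so by construction removes narrow ESC peaks. It gave 0 genes with H3K27ac at the start in ESCs and 0 in D-EPSCs, 0 H3K27ac bases in ESC windows, and so 0 genes with fewer H3K27ac bases in either EPSC state. It also gave 1 gene with H3K4me1 at the start and 1 with it over the first base in ESCs, 9120 H3K4me1 bases in ESC windows, and 1 gene with fewer H3K4me1 bases in each EPSC state. For other germline genes it gave 2 with H3K27ac in ESCs, 4 in D-EPSCs and 12 with H3K4me1 in ESCs. Peaks of at least 500 bp left 0 of the 10 genes and 5 other germline genes with H3K27ac in L-EPSCs. Spans widened by 10 kb gave fewer H3K27ac bases for 3 genes in D-EPSCs (53.7% of all genes) and 5 in L-EPSCs (57.7%). They gave fewer H3K4me1 bases for 5 in L-EPSCs (54.1%), and the cause was not tested. Without Tdrd1, 1 gene had H3K27ac in the window in L-EPSCs and 1 had more than in ESCs. No value moved with the other settings. No paired analysis was possible because each mark and state had 1 list.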
